A study of Homo sapiens with 12 samples.

Results

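The 9 genes described here encode p63, its relative p73 and 7 transcription factors of squamous and oral epithelium: TP63, TP73, SOX2, ZNF750, BNC1, PITX1, PAX9, SOX15 and FOXE1. They were chosen by name, and each was found as 1 row among the 20738 genes of the expression table. The table covers 12 RNA sequencing libraries of UM-SCC-47 and UPCI-SCC-090, established cell lines from human papillomavirus-positive head and neck squamous cell carcinoma. Each line was kept for 72 h with 500 nM JQ1 or, as the control, with 0.1% DMSO, which gave 4 groups of 3 libraries: UM-SCC-47 with DMSO, UM-SCC-47 with JQ1, UPCI-SCC-090 with DMSO and UPCI-SCC-090 with JQ1. No gene was deleted or introduced in any group, and each line stands for 1 tumor grown in culture. JQ1 occupies the pocket with which proteins of the BET family bind acetylated histones.

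p63 is the factor on which the basal layer of stratified epithelium depends. It binds the same kind of DNA site as p53 and p73, and it switches on keratins, hemidesmosome and adhesion genes of basal cells. TP63 has an upstream start, which gives TAp63, and an inner start, which gives the ΔNp63 form that predominates in squamous carcinomas. SOX2, PITX1, PAX9, FOXE1, SOX15 and BNC1 are DNA-binding factors of oral, esophageal or skin epithelium, whereas ZNF750 acts downstream of p63 and promotes the passage from basal to differentiated cells. The values are gene totals, so TAp63 and ΔNp63 could not be told apart, nor could the full-length and shortened forms of p73.

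On GRCh37, as annotated by GENCODE 44, TP63 (ENSG00000073282) spans chr3:189349178-189615065 and SOX2 (ENSG00000181449) lies on the same chromosome at chr3:181429713-181432224. TP73 (ENSG00000078900) is at chr1:3569080-3652765, PITX1 (ENSG00000069011) at chr5:134363424-134370503, FOXE1 (ENSG00000178919) at chr9:100615508-100618999 and PAX9 (ENSG00000198807) at chr14:37126773-37148567. BNC1 (ENSG00000169594) is at chr15:83924636-83953416, and ZNF750 (ENSG00000141579) and SOX15 (ENSG00000129194) are on chromosome 17 at chr17:80787310-80797898 and chr17:7491496-7493412. The annotation serves to place the genes, since no source used here names the build behind the expression estimates.

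The library totals ran from 20349275 to 30788657 estimated counts. Of 10 marker genes of squamous carcinoma cells, each had at least 1 CPM (read counts scaled to the size of the library, after TMM over the 12 libraries) on average in every group, apart from KRT14 at 0.872 CPM in UPCI-SCC-090 with JQ1. KRT14 was at 1.24 CPM with DMSO in that line. A level of 1 CPM does not by itself show squamous identity. Basal keratin KRT5 was at 607 CPM in UM-SCC-47 and at 8 CPM in UPCI-SCC-090 with DMSO, and KRT6A at 39.6 and 4560 CPM. The summed markers of leukocytes reached at most 44.2 CPM and those of endothelial cells at most 8.26 CPM in any library. Ribosomal protein genes took 4.31 to 5.8% of the counts in UPCI-SCC-090 with DMSO and 10.6 to 11.1% with JQ1, a shift that accompanies every UPCI-SCC-090 comparison of treatments and whose part in the members' values was not tested. Fewer cells with a gene switched on and less RNA of it per cell cannot be told apart in such bulk samples. Whether the 3 libraries of a group came from separate cultures is not stated, so p-values measure the spread between these libraries, which may be technical.

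The promoters of TP63, TP73, PITX1 and FOXE1 are shown because these 4 members were called lower with JQ1 in at least 1 line, with a mean more than 3 times higher in the DMSO libraries. Each sequence is the RefSeq window from 250 bases before to 50 bases after a start on GRCh38.p14, read 5′ to 3′ on the gene's strand. Capitals mark the GC box GGGCGG, the CCAAT box CCAAT and the TATA box TATAAA on either strand. The windows are chr3:189631139-189631438 (plus strand, upstream start) for TP63, chr1:3652266-3652565 (plus strand, the first of 3 starts) for TP73, chr5:135034179-135034478 (minus strand) for PITX1 and chr9:97852976-97853275 (plus strand) for FOXE1.
TP63: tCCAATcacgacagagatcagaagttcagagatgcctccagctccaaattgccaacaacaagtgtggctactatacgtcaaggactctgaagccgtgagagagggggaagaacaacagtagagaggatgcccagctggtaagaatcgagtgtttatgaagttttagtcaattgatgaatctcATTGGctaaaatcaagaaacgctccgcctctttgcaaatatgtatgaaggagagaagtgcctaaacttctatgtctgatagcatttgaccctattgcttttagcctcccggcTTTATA
TP73: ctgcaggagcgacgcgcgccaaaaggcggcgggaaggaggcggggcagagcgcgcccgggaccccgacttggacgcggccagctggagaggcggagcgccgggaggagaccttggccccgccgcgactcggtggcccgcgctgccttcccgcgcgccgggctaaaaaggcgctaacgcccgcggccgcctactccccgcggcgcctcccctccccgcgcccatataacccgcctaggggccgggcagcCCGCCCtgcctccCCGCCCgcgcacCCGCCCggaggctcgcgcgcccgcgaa
PITX1: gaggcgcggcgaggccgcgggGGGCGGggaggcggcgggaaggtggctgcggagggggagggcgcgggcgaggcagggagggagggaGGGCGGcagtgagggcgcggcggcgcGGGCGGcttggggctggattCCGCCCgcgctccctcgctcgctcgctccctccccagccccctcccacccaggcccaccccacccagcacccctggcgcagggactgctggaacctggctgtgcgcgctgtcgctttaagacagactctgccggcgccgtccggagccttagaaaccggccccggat
FOXE1: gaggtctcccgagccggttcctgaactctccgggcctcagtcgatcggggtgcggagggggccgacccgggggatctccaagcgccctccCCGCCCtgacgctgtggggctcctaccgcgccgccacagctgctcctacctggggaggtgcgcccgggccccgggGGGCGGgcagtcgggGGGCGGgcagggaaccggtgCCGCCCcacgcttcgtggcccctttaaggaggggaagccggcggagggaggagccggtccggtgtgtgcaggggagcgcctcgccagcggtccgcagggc

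The TP63 window, which covers the upstream start and not the inner start of ΔNp63, differed in composition from the other windows shown. It had 43.7% GC and 7 CpG dinucleotides, against a median of 58.7% and 14 over 35116 RefSeq promoter windows of this length. TP73 had 78.7% GC and 49 CpG, PITX1 77% and 35, and FOXE1 76% and 32. No GC box was found in the TP63 window, while TP73 held 3, PITX1 4 and FOXE1 4. The GC box was present in 45% of all windows, the CCAAT box in 34.6% and the TATA letters in 11.5%. In TP63 the CCAAT letters occurred at 2 places and the TATA letters at the very end of the window, past the start. RefSeq entries were found for 7 of the 9 members, with 11 windows in all, and none for ZNF750 and SOX15. The FOX letters GTAAACA, the PITX letters TAATCC and the AP-1 letters TGANTCA matched none of the 11 windows on either strand, against 3.42%, 6.36% and 7.71% of all windows. The SOX letters ACAAAG were in 1 of the 11, that of SOX2, and in 16.1% of all. These are matches of letters, and a window without a match says nothing of the factor.

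**Figure D1:**
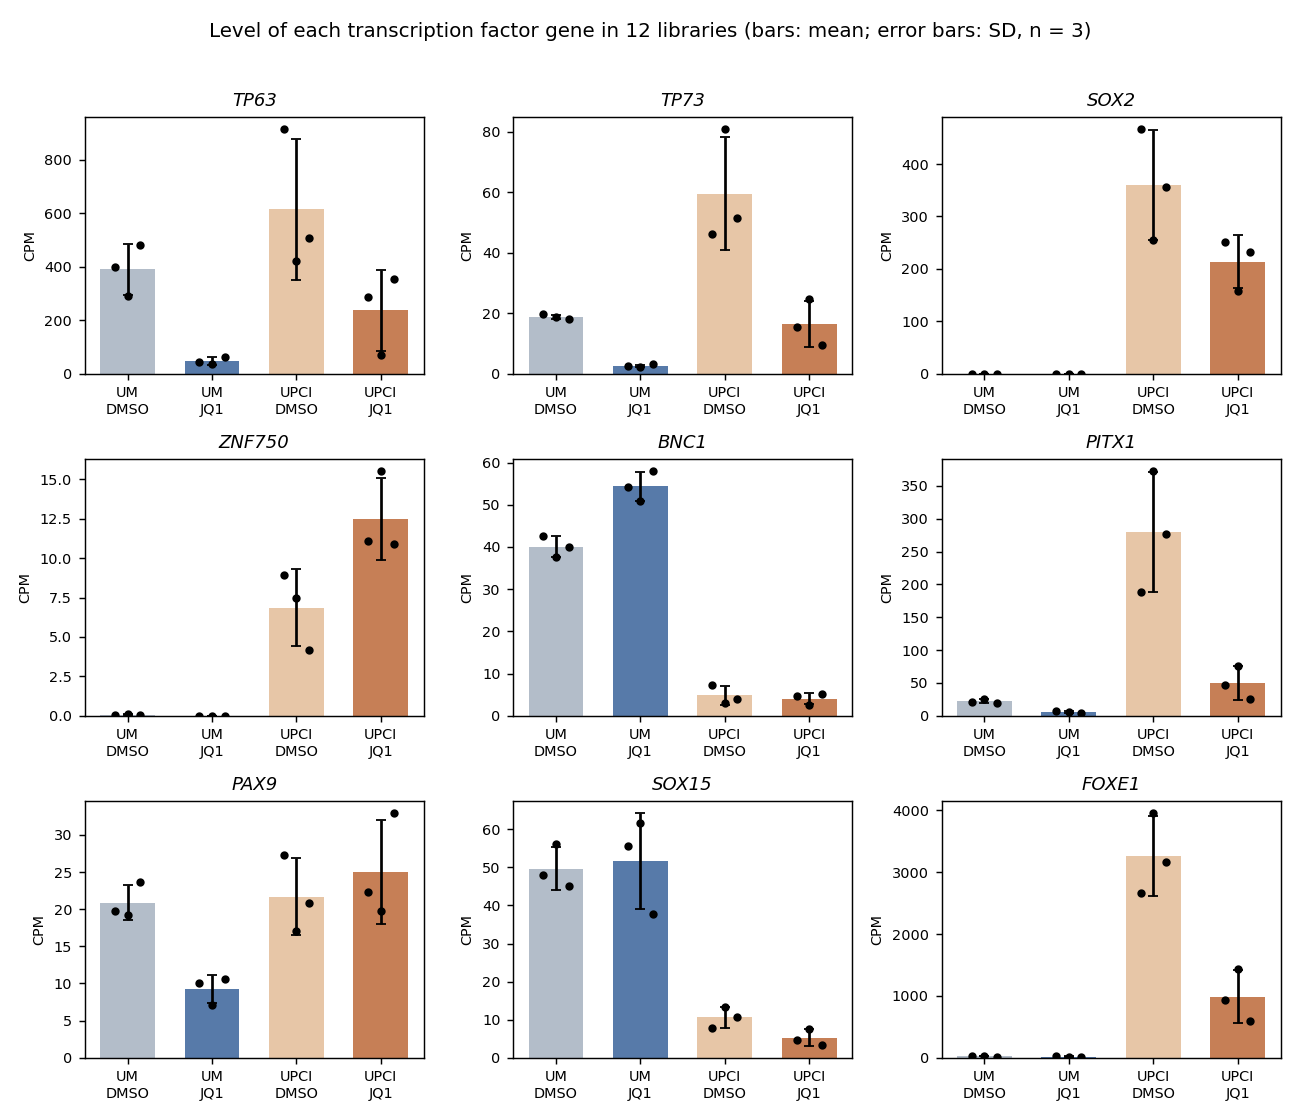
Level of each of the 9 genes in CPM (vertical axes, starting at 0) in UM-SCC-47 (UM) and UPCI-SCC-090 (UPCI) with DMSO or JQ1. Bars are means and error bars SD of 3 libraries, shown as points: TP63 in UM-SCC-47 drops from a mean of 391 to 48.5 CPM, and SOX2 and ZNF750 are near 0 in UM-SCC-47.

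The first question was what BET inhibition does to these factors in each line. In UM-SCC-47, TP63, TP73, PITX1 and PAX9 fell with JQ1, TP63 and TP73 by more than PITX1 and PAX9. BNC1 rose slightly, SOX15 and FOXE1 were not called, and SOX2 and ZNF750 had too few counts to enter the test. In UPCI-SCC-090, TP73, PITX1 and FOXE1 fell, and no member was called higher. A gene was called where its adjusted p in edgeR's quasi-likelihood test, with Benjamini-Hochberg adjustment over all genes tested, was below 0.05. In UM-SCC-47 4 of the 7 tested members were called lower, against 25.5% of all genes tested, and 1 of 7 was called higher, against 16.1%. In UPCI-SCC-090 3 of 9 were called lower, against 20.4%, and 0 of 9 higher, against 7.67%. In UPCI-SCC-090 TP63, SOX2, ZNF750 and SOX15 had unadjusted p-values of 0.078, 0.05, 0.096 and 0.016, and DESeq2 called 0 members higher as well.

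TP63 was read at 401, 290 and 481 CPM in the UM-SCC-47 libraries with DMSO and at 43.5, 38 and 63.9 CPM with JQ1. Every JQ1 library was far under every control library. The log2 fold change of −3.02 ± 0.28 (SE, adjusted p = 5.5e-04) was larger than the spread of both groups. In UPCI-SCC-090 TP63 was at 914, 423 and 508 CPM with DMSO and at 289, 68.5 and 355 CPM with JQ1. Here, too, the groups did not overlap, but replicates 1 with DMSO and 2 with JQ1 stood apart from the other libraries of their groups. The log2 fold change was −1.43 ± 0.68 (adjusted p = 0.18). Without JQ1 replicate 2 it was −0.93 ± 0.42 (adjusted p = 0.14).

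TP73 encodes the p53 family member whose full-length form activates p53 target genes and whose shortened form blocks them. In UM-SCC-47 it stood at 19.6, 18.7 and 18.2 CPM with DMSO and at 2.56, 2.19 and 3.08 CPM with JQ1, a log2 fold change of −2.86 ± 0.20 (adjusted p = 2.3e-04). In UPCI-SCC-090 the values were 46.3, 80.7 and 51.5 CPM against 15.6, 24.6 and 9.55 CPM, with −1.99 ± 0.37 (adjusted p = 0.01). TP73 was lower in all JQ1 libraries than in all DMSO libraries of its line. The UPCI-SCC-090 call did not hold without JQ1 replicate 1, at −1.79 ± 0.56 (adjusted p = 0.091). Per kb of exon, TP63 exceeded TP73 in each group: the ratio was 18.9 ± 4.94 (SD, n = 3) in UM-SCC-47 with DMSO and 16.6 ± 1.88 with JQ1, and 10.5 ± 6.7 and 17.6 ± 15.6 in UPCI-SCC-090.

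PITX1, a homeobox factor of the hindlimb and oral ectoderm, was the member with the largest called fall in UPCI-SCC-090. It went from 189, 372 and 276 CPM to 47.3, 76.5 and 25 CPM (log2 fold change −2.64 ± 0.40, adjusted p = 0.0053). In UM-SCC-47 it went from 20.7, 25.7 and 20.1 CPM to 7.77, 5.17 and 5.01 CPM (−1.90 ± 0.24, adjusted p = 0.0015). The groups were separate in both lines, and the response did not differ detectably between them (interaction −0.61 ± 0.53, adjusted p = 0.62).

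FOXE1 is a forkhead factor of the thyroid, palate and hair follicle. It was the most abundant member per kb in UPCI-SCC-090, at 2670, 3950 and 3170 CPM with DMSO and 930, 1440 and 588 CPM with JQ1. The fall was −1.87 ± 0.28 on the log2 scale (adjusted p = 0.0052). In UM-SCC-47, with 27.2, 26.6 and 20.3 CPM against 23, 18.1 and 18.9 CPM, the groups overlapped and the log2 fold change was −0.32 ± 0.19 (adjusted p = 0.22). The difference between the responses was −1.43 ± 0.42 (adjusted p = 0.068), which missed the threshold and was called under 8 of 21 alternatives. TRMO, the nearest tested protein-coding gene to its right at 47.8 kb, changed in the same direction as FOXE1 in UPCI-SCC-090: it fell from a mean of 1340 to 592 CPM (−1.29 ± 0.16, adjusted p = 0.0041), while in UM-SCC-47 it rose from 12.5 to 23.7 CPM (0.92 ± 0.20, adjusted p = 0.012).

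PAX9, a paired-box factor of the tooth bud, palate and esophagus, fell in UM-SCC-47 from 19.8, 19.2 and 23.6 CPM to 10.1, 7.14 and 10.6 CPM (−1.18 ± 0.21, adjusted p = 0.0055). In UPCI-SCC-090 the groups overlapped, with 27.3, 17.1 and 20.8 CPM against 22.3, 19.7 and 32.9 CPM (0.12 ± 0.39, adjusted p = 0.86). The difference between the responses was 1.37 ± 0.41 (adjusted p = 0.072), and DESeq2 gave 1.40 ± 0.43 (adjusted p = 0.023). SLC25A21, a mitochondrial carrier gene that overlaps PAX9 on the other strand, also fell in UM-SCC-47, from 1.96 to 0.479 CPM (−2.02 ± 0.26, adjusted p = 0.0017), and so did NKX2-8, to the left of PAX9 (−2.32 ± 0.39, adjusted p = 0.0046). MIPOL1, to the right, was not called (−0.31 ± 0.54, adjusted p = 0.68). SLC25A21 and NKX2-8 are low, and how the counting treated strand is not stated.

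BNC1 encodes basonuclin 1, a zinc finger protein of basal keratinocytes. In UM-SCC-47 it was at 42.6, 37.6 and 40 CPM with DMSO and at 54.3, 51 and 57.9 CPM with JQ1, a small rise without overlap (0.43 ± 0.12, adjusted p = 0.033). The call was lost when any DMSO library or JQ1 replicate 1 was left out, with adjusted p between 0.09 and 0.12, and with scaling by library size only (0.18 ± 0.14, adjusted p = 0.33). In UPCI-SCC-090 the libraries overlapped, at 7.35, 3.02 and 4.07 CPM against 4.58, 2.57 and 5.1 CPM (−0.33 ± 0.51, adjusted p = 0.7).

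SOX15, a SOX protein of squamous epithelium, did not separate by treatment in UM-SCC-47, with 47.9, 56.1 and 45 CPM against 55.6, 61.8 and 37.7 CPM (0.04 ± 0.21, adjusted p = 0.89). In UPCI-SCC-090 it was at 7.75, 13.3 and 10.6 CPM with DMSO and at 4.8, 7.65 and 3.3 CPM with JQ1. These groups were separate by a narrow margin, and the log2 fold change of −1.15 ± 0.36 missed the threshold (adjusted p = 0.055). It passed without JQ1 replicate 2, at −1.35 ± 0.38 (adjusted p = 0.039).

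SOX2, a pluripotency factor whose gene is often gained together with TP63 in squamous tumors, was abundant in UPCI-SCC-090 and close to the counting limit in UM-SCC-47. In UM-SCC-47 it had 13, 14 and 8 counts in the DMSO libraries and 1 count in each JQ1 library. The ratio of JQ1 to DMSO over these 35 and 3 counts was 0.107 (95% exact interval 0.0212 to 0.341, counting error only). In a fit of all 12 libraries SOX2 passed the count filter only through its UPCI-SCC-090 libraries. In that fit the UM-SCC-47 fold change was −3.08 ± 0.50 (adjusted p = 0.0011), an estimate that depends on the prior count. In UPCI-SCC-090 SOX2 was at 466, 256 and 357 CPM with DMSO and at 252, 157 and 232 CPM with JQ1. Those groups were separate by only a few CPM, and the log2 fold change was −0.84 ± 0.35 (adjusted p = 0.13). The interaction in the fit of 12 libraries was 2.33 ± 0.58 (adjusted p = 0.034), which rests on the 35 and 3 counts of UM-SCC-47.

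ZNF750 had 2, 3 and 1 counts in UM-SCC-47 with DMSO and 0 in each library with JQ1, and a count of 0 over the group allows up to 0.0465 CPM. In UPCI-SCC-090 it was at 8.91, 7.48 and 4.17 CPM with DMSO and at 11.1, 15.5 and 10.9 CPM with JQ1. ZNF750 was the only member whose JQ1 libraries all lay above the DMSO libraries in UPCI-SCC-090, but the log2 fold change of 0.73 ± 0.38 was not called (adjusted p = 0.2). The difference between the lines, 4.86 ± 1.12 (adjusted p = 0.033), rests on those 6 counts and on the prior count. Of the 9 interaction tests 2 were called, those of SOX2 and ZNF750, against 6.56% of all genes. DESeq2 called neither of the 2, with adjusted p = 0.12 for SOX2 and 0.078 for ZNF750.

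**Figure D2:**
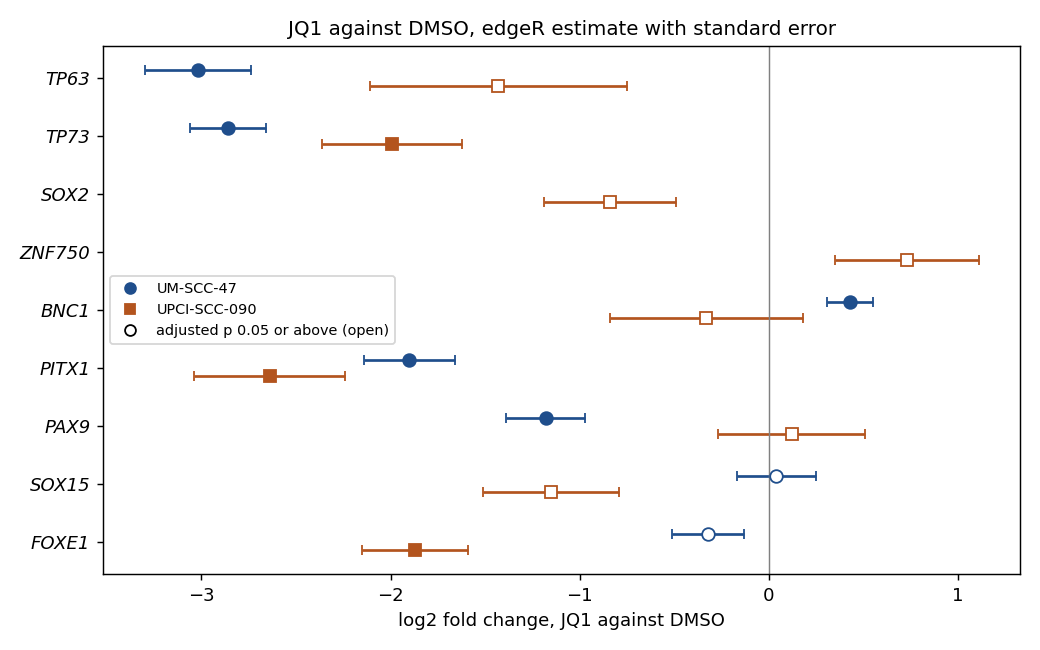
Log2 fold change with JQ1 against DMSO (horizontal axis) for the 9 genes in UM-SCC-47 (circles) and UPCI-SCC-090 (squares), with standard errors. Filled symbols passed the test: TP63 at −3.02 and TP73 at −2.86 lie farthest left in UM-SCC-47, PITX1 at −2.64 in UPCI-SCC-090, and SOX2 and ZNF750 were not tested in UM-SCC-47.

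The 9 members were also read by overlap of libraries. In UPCI-SCC-090 6 of 9 members had every JQ1 library below every DMSO library, against 24.4% of all genes, and 1 of 9 above, against 16.1%. In UM-SCC-47 the 7 tested members gave 4 below, against 32.5%, and 1 above, against 22.8%. The median log2 fold change over all genes was −0.03 in UM-SCC-47 and −0.14 in UPCI-SCC-090, and RLE scaling moved these medians to 0.12 and 0.14. The falls of TP63, TP73, PITX1 and PAX9 in UM-SCC-47 and of PITX1 and FOXE1 in UPCI-SCC-090 were called under each of the 16 alternatives to the main analysis of their comparison.

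In UPCI-SCC-090 the members' deviations from their group means went with GC content in 4 of the 6 libraries and were mixed in DMSO replicate 3 and JQ1 replicate 1. TP63, SOX2, BNC1 and PAX9 have exons of 46.8 to 51.8% GC, and TP73, PITX1, SOX15 and FOXE1 of 61.1 to 68.2%. In DMSO replicate 2, whose GC trend was 0.70 (log2 CPM per 10 points of GC), 0 of the 4 members with less GC and 4 of the 4 with more GC were above their group mean. The same held in JQ1 replicate 2, with a trend of 0.47, and the reverse in DMSO replicate 1 at −0.30 and JQ1 replicate 3 at −0.78. The low TP63 value of 68.5 CPM and the high PITX1 value of 76.5 CPM with JQ1 thus come from the same library, replicate 2. The part of GC content in the members' changes was not tested beyond the alternatives named. With the libraries of steepest trend left out (DMSO replicate 2 and JQ1 replicate 3 of this line), TP63 in UPCI-SCC-090 changed by −1.90 ± 0.59 (adjusted p = 0.033) and TP73 by −1.24 ± 0.48 (adjusted p = 0.074). After GC correction TP63 was not called (−1.61 ± 0.64, adjusted p = 0.075) and TP73 was (−1.49 ± 0.21, adjusted p = 0.0011), and PITX1 changed by −1.83 ± 0.17 (adjusted p = 2.9e-04).

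**Figure D3:**
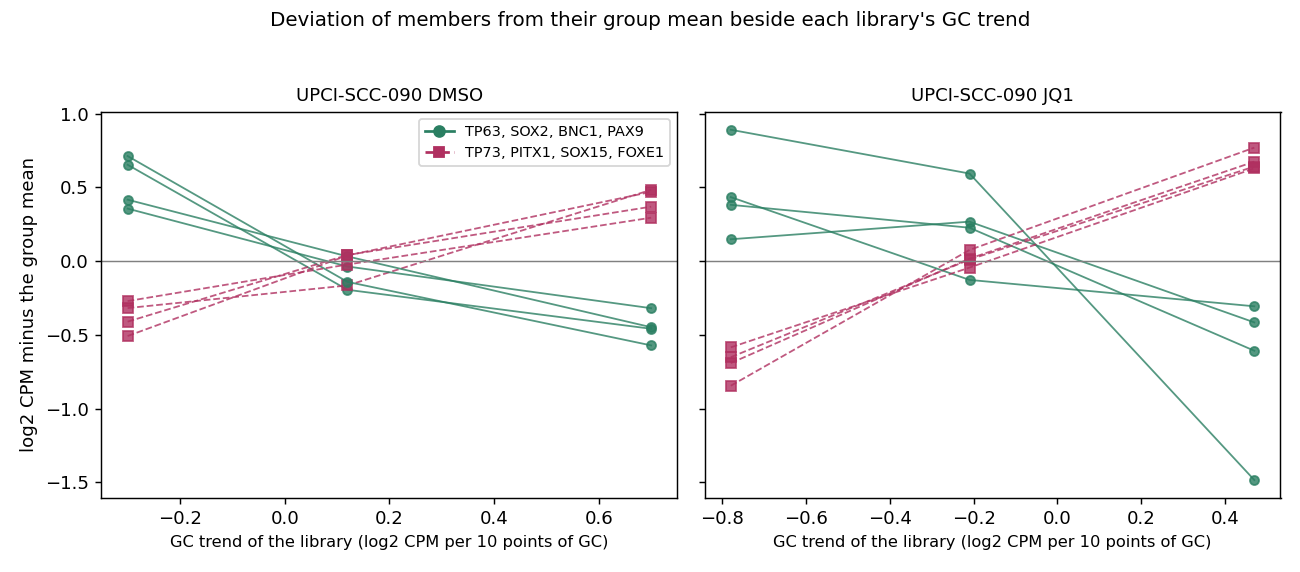
Log2 CPM of 8 genes minus their group mean (vertical axis) against the GC trend of each UPCI-SCC-090 library (horizontal axis), with DMSO (left) and JQ1 (right). Points are libraries joined by gene: at the library of highest trend in each group (0.70 and 0.47) TP63, SOX2, BNC1 and PAX9 lie below 0 and TP73, PITX1, SOX15 and FOXE1 above.

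The second question was how far the lines themselves differ. Per kb of exon the leading members of UM-SCC-47 with DMSO were TP63 at 52.2 ± 12.8 (SD, n = 3) and SOX15 at 33.9 ± 3.91 CPM per kb, whereas those of UPCI-SCC-090 were FOXE1 at 935 ± 185, SOX2 at 143 ± 41.8, TP63 at 82.2 ± 35.1 and PITX1 at 81 ± 26.5 CPM per kb. With JQ1, TP63 in UM-SCC-47 was at 6.48 ± 1.83 CPM per kb, behind SOX15 at 35.3 ± 8.55 and BNC1 at 11.1 ± 0.707. The order FOXE1, SOX2, TP63, PITX1 was the same with JQ1 in UPCI-SCC-090, from 282 ± 123 to 14.4 ± 7.5 CPM per kb. TP63 and PITX1 with DMSO did not differ there beyond their spread, and their order changed between libraries. SOX2 was above TP63 in each of these DMSO libraries (185 against 122, 102 against 56.5 and 142 against 67.9 CPM per kb).

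With DMSO, 5 of 9 members were called higher in UPCI-SCC-090 with UM-SCC-47 as the reference, against 23.3% of all genes, and 2 were called lower, against 19.9%. The 5 include SOX2 and ZNF750, which passed the count filter only through their UPCI-SCC-090 libraries. The direction of their calls followed from that filter, so they add no support to the count. FOXE1 was higher by 7.05 ± 0.38 on the log2 scale (adjusted p = 1.4e-07), PITX1 by 3.65 ± 0.41 (adjusted p = 2.3e-05) and TP73 by 1.66 ± 0.35 (adjusted p = 0.0022). BNC1 (−3.05 ± 0.37) and SOX15 (−2.23 ± 0.35) were lower. SOX2 differed by 852-fold (95% exact interval 612 to 1220, counting error only) and ZNF750 by 91.3-fold (41.7 to 250). TP63 and PAX9 were not called, with 0.65 ± 0.50 (adjusted p = 0.32) and 0.06 ± 0.29 (adjusted p = 0.9). TP63 overlapped between the lines, with 290 to 481 CPM in UM-SCC-47 and 423 to 914 CPM in UPCI-SCC-090.

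With JQ1 each of the 9 members was called between the lines: 7 higher in UPCI-SCC-090, against 24% of all genes, and 2 lower, against 20.9%. Here, too, SOX2 and ZNF750 are among the 7, and the direction of their calls followed from the filter. TP63, not called with DMSO, was 2.29 ± 0.52 higher in UPCI-SCC-090 (adjusted p = 0.0037), and PAX9 1.43 ± 0.29 higher (adjusted p = 0.0019). TP73 was 2.66 ± 0.37, PITX1 3.05 ± 0.41 and FOXE1 5.62 ± 0.36 higher. BNC1 at −3.73 ± 0.38 and SOX15 at −3.30 ± 0.36 were lower. ZNF750 was at least 263-fold higher against the floor of 3 counts over the UM-SCC-47 group, and SOX2, with 3 counts there, 4710-fold (95% exact interval 1610 to 22800). The interaction of TP63 was not called (1.64 ± 0.71, adjusted p = 0.23), so that its response is not shown to differ between the lines. It was called without UPCI-SCC-090 JQ1 replicate 2 (2.08 ± 0.47, adjusted p = 0.021).

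**Figure D4:**
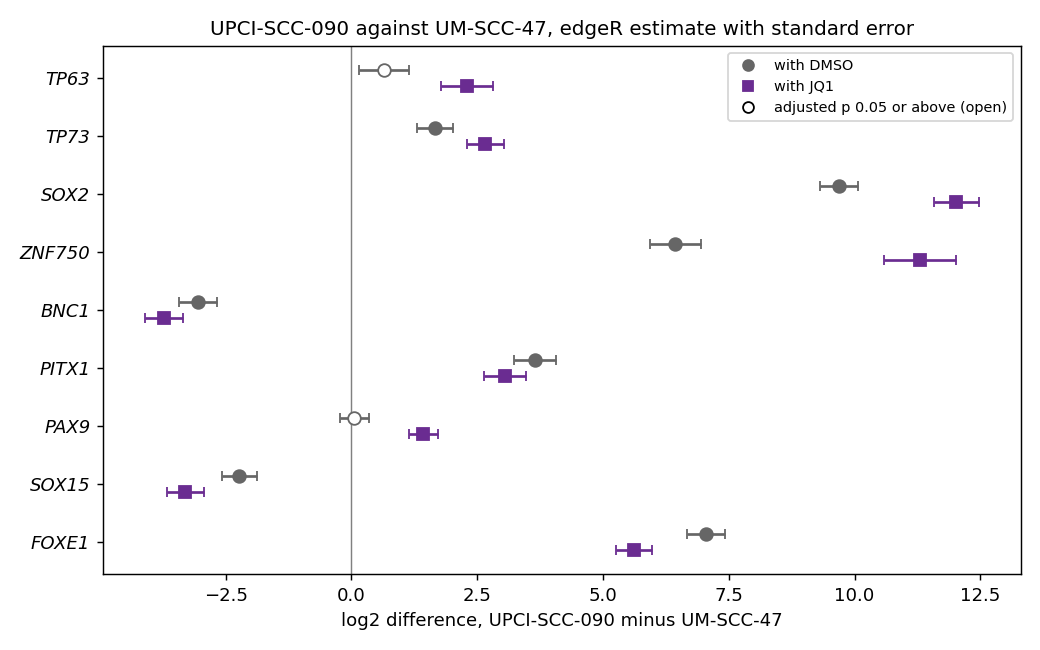
Log2 difference of UPCI-SCC-090 minus UM-SCC-47 (horizontal axis) for the 9 genes with DMSO (circles) and with JQ1 (squares), with standard errors. Filled symbols passed the test: SOX2, ZNF750 and FOXE1 lie farthest right, BNC1 and SOX15 left of 0, and TP63 moves from 0.65 to 2.29; the SOX2 and ZNF750 estimates depend on the prior count.

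Across the 4 groups, TP63 was ordered UPCI-SCC-090 with DMSO, UM-SCC-47 with DMSO, UPCI-SCC-090 with JQ1 and UM-SCC-47 with JQ1, and only the last step, of 4.9-fold, was without overlap. TP73 followed the same order, with overlap only between its middle groups, at 18.8 ± 0.691 and 16.6 ± 7.59 CPM. The means of PITX1, FOXE1 and SOX2 were ordered by line first and treatment second, as were those of ZNF750 with JQ1 above DMSO in UPCI-SCC-090. PITX1 overlapped between UPCI-SCC-090 with JQ1 and UM-SCC-47 with DMSO (25 CPM in the lowest and 25.7 CPM in the highest library), and FOXE1 between both UM-SCC-47 groups. PAX9 had 3 groups that overlapped, at 20.9 to 25 CPM on average, and UM-SCC-47 with JQ1 apart at 9.27 ± 1.86 CPM.

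The genes whose log2 CPM correlated most with TP63 over the 12 libraries were PER3, a circadian clock gene (Pearson r = 0.991), DTL, a substrate receptor of a ubiquitin ligase (0.985), ZIC5 (0.984), BACH2 (0.982) and PRTFDC1 (0.980). Their r over deviations from the 4 group means was 0.90 to 0.96. The libraries share the GC trend named above, and the exons of these genes had 41.6 to 52.6% GC. For TP73 the nearest patterns were DIPK1B (0.997) and MSL1 (0.992), for PITX1 PPFIA3 (0.997) and IFNLR1 (0.996), and for FOXE1 QRFPR (0.999) and DMRT3 (0.998). SOX2 was followed by GJB6, a gap junction gene of squamous epithelium (0.998), and PIEZO2 (0.997), and ZNF750 by TRIM9 (0.997) and KRT6A (0.993), whose r within groups were lower, at 0.44, 0.72, 0.51 and 0.12. BNC1 was nearest to LHFPL2 (0.996) and MYOF (0.995), SOX15 to PLAUR (0.995) and PAX9 to TDRD9 (0.941) and DENND11 (0.940).

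Genes beside the members were read for the same contrast. TPRG1, 306 kb to the left of TP63, fell in UPCI-SCC-090 from 17.6 to 1.78 CPM (−3.41 ± 0.39, adjusted p = 0.0038), and P3H2, 59.5 kb to its right, from 9.6 to 2.94 CPM (−1.83 ± 0.28, adjusted p = 0.0054). In UM-SCC-47, where TP63 fell, P3H2 was at 116 and 118 CPM (0.01 ± 0.14, adjusted p = 0.96) and TPRG1 was near 0. Beside TP73, TPRG1L rose in both lines (1.18 ± 0.18 and 1.11 ± 0.25), in the opposite direction to TP73. SMIM1, 36.5 kb to the right of TP73 and low, fell in UPCI-SCC-090 from 1.32 to 0.209 CPM (−2.74 ± 0.48, adjusted p = 0.0081). In UM-SCC-47 SMIM1 was not called (0.59 ± 0.27, adjusted p = 0.13). WRAP73, which overlaps TP73 on the other strand, was not called (0.12 ± 0.18 and 0.27 ± 0.29). PITX1-AS1, an RNA from the strand opposite PITX1, changed by −0.20 ± 0.32 (adjusted p = 0.64) in UM-SCC-47 and −1.30 ± 0.39 (adjusted p = 0.05) in UPCI-SCC-090 and was not called in either.

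The third question was whether known targets of p63 in basal cells moved with it. In UM-SCC-47 16 of 39 tested targets were called lower, against 25.5% of all genes, and 4 higher, against 16.1%, with a median log2 fold change of −0.14, against −0.03 over all genes. In UPCI-SCC-090 9 of 39 were called lower, against 20.4%, and 8 higher, against 7.67%, with a median of 0.03 against −0.14. FAT2, a cadherin of basal keratinocytes, fell most in UM-SCC-47, from 129 ± 5.16 to 7.74 ± 1.06 CPM (−4.07 ± 0.16, adjusted p = 9.5e-05). The calcium-binding S100A2 went from 200 ± 25.5 to 37.7 ± 12.3 CPM (−2.42 ± 0.26), and the growth factor NRG1 from 38 ± 1.13 to 10 ± 0.477 CPM (−1.93 ± 0.14). KRT14, a defining keratin of basal cells, rose from 115 ± 8.32 to 251 ± 13.3 CPM (1.12 ± 0.11, adjusted p = 6.5e-04) in the libraries where TP63 fell. LAMA3, a laminin chain, and PERP, a desmosome gene that p63 activates, rose with it (1.01 ± 0.28 and 1.16 ± 0.15).

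In UPCI-SCC-090 FASN, the fatty acid synthase, fell from 426 ± 150 to 21.7 ± 14.5 CPM (−4.45 ± 0.68, adjusted p = 0.0056). HAS3, which encodes a hyaluronan synthase (−3.18 ± 0.30), and NRG1 (−3.13 ± 0.37) fell too. KRT15 rose from 118 ± 22.8 to 1330 ± 459 CPM (3.37 ± 0.25, adjusted p = 0.0037), PERP by 1.89 ± 0.39 and the glucose transporter gene SLC2A1 by 1.51 ± 0.27. In both lines 8 targets were called lower (ITGB4, COL17A1, JAG2, FAT2, FGFR2, NRG1, HAS3 and FASN), which is 8 of the 16 in UM-SCC-47 and 8 of the 9 in UPCI-SCC-090. The share of all genes called lower in both lines was not computed, so this overlap is not read as particular to the targets. PERP was called higher in both, and KRT15 and S100A2 were called in opposite directions, with interactions of 4.28 (adjusted p = 8.6e-05) and 3.67 (adjusted p = 0.0012). The list was drawn up with earlier results of these data known.

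**Figure D5:**
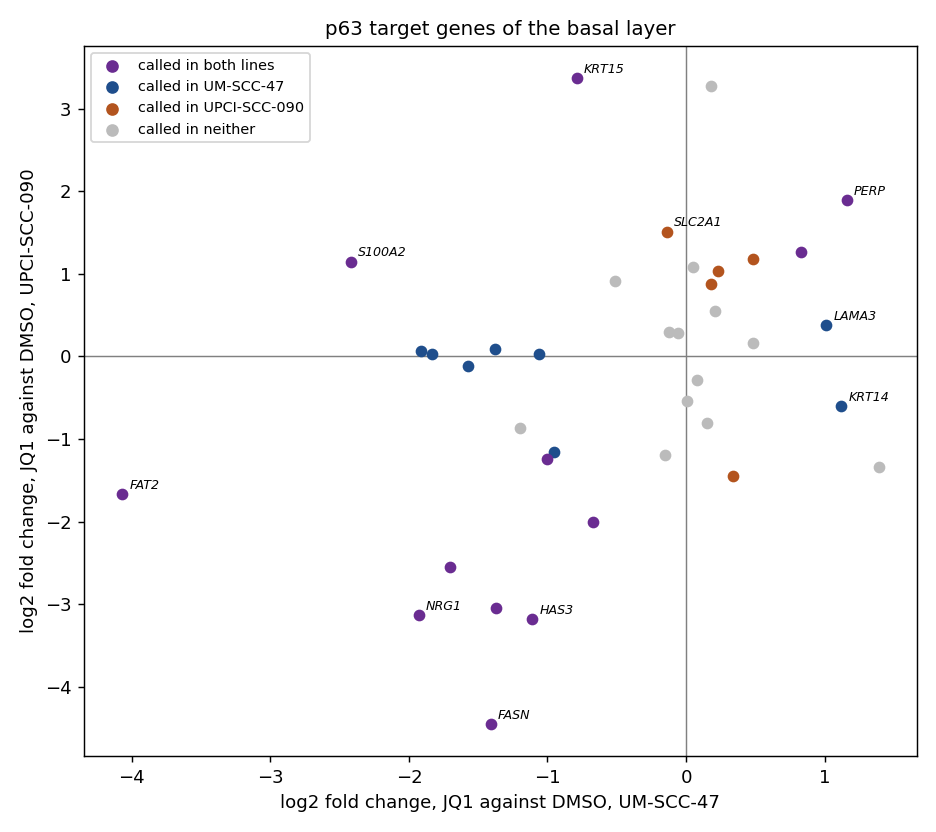
Log2 fold change with JQ1 against DMSO in UM-SCC-47 (horizontal axis) and UPCI-SCC-090 (vertical axis) for the 38 p63 target genes tested in both lines, 1 point per gene. Purple points were called in both lines, and symbols mark the genes chosen by the rule for named genes: FASN, NRG1 and FAT2 lie at the lower left, PERP at the upper right, and KRT15 and S100A2 at the upper left.

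Among 19 genes that regulate or relate to the p53 family, 6 were called lower and 2 higher in UM-SCC-47 (all genes 25.5% and 16.1%), and 5 lower and 0 higher in UPCI-SCC-090 (all genes 20.4% and 7.67%). KMT2D, a histone methyltransferase that works with p63, fell from 71.1 ± 6.48 to 10.8 ± 2.72 CPM in UM-SCC-47 (−2.73 ± 0.23) and, in UPCI-SCC-090, from 97.4 ± 32.9 to 5.42 ± 3.06 CPM (−4.31 ± 0.54). MDM4, an inhibitor of p53, fell in both lines (−1.80 ± 0.30 and −2.01 ± 0.51). MDM2, which marks p53 for degradation and is itself a p53 target, rose in UM-SCC-47 from 74.2 ± 28 to 662 ± 512 CPM (3.15 ± 0.65, adjusted p = 0.0094), with a wide spread among the JQ1 libraries.

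Of 26 other squamous transcription factors tested, 7 were called lower and 2 higher in UM-SCC-47, where 25.5% and 16.1% of all genes were, and 3 lower and 5 higher in UPCI-SCC-090, where 20.4% and 7.67% were. The median changes were −0.13 and −0.04. GRHL3, a factor of barrier formation, fell in UM-SCC-47 from 28.4 ± 2.56 to 6.1 ± 0.96 CPM (−2.23 ± 0.19), as did BNC2, the paralog of BNC1 (−3.09 ± 0.49), while BNC1 itself rose. ELF3, an epithelial ETS factor, rose in UPCI-SCC-090 from 39.2 ± 8.72 to 175 ± 66.2 CPM (2.03 ± 0.28), and SOX21 fell there from 106 ± 6.74 to 26.8 ± 8.89 CPM (−2.13 ± 0.26). TFAP2A, an AP-2 factor, was called in opposite directions (0.85 ± 0.13 in UM-SCC-47 and −1.17 ± 0.28 in UPCI-SCC-090), with an interaction of −1.90 (adjusted p = 0.007). Of the 5 partners of ZNF750, 1 was called lower in UM-SCC-47, the demethylase gene KDM1A (−0.68 ± 0.12), and 0 in either direction in UPCI-SCC-090.

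Among the late differentiation genes, which ZNF750 is known to promote, 8 of 14 tested in UM-SCC-47 were called lower and 2 higher (median −0.93), beside 25.5% and 16.1% of all genes. In UPCI-SCC-090 4 of 16 were called lower and 7 higher (median 0.83), beside 20.4% and 7.67%. Of the 12 tested in both lines, 4 were called in opposite directions (IVL, TGM1, KRT4 and KRT13), 3 lower in both (SPINK5, PPL and EVPL) and 1 higher in both (CNFN). The shares of all genes with such calls in both lines were not computed. IVL was low in UPCI-SCC-090, at 0.0843 CPM with DMSO and 1.2 CPM with JQ1. KRT13, the suprabasal keratin of oral mucosa, fell in UM-SCC-47 from 337 ± 19.8 to 16.8 ± 0.971 CPM and rose in UPCI-SCC-090 from 38.1 ± 9.58 to 982 ± 320 CPM (interaction 9.01, adjusted p = 8.6e-07). Its partner KRT4 fell from 49 ± 4.67 to 4.55 ± 0.929 CPM in the first line and in the second rose from 5.58 ± 1.5 to 276 ± 139 CPM (interaction 9.06, adjusted p = 8.6e-06). EVPL, a cornified envelope gene, fell in both lines, with log2 fold changes of −1.58 ± 0.16 in the first and −3.93 ± 0.43 in the second. Among partners of SOX2 and pluripotency factors 5 of 8 were called lower in each line (all genes 25.5% and 20.4%), with 2 higher in UM-SCC-47 and 1 in UPCI-SCC-090 (all genes 16.1% and 7.67%). The 5 were the same genes in both lines (POU5F1, SALL4, MYC, SOX9 and SOX21), again without a share of all genes to set beside them. With DMSO, POU5F1, SALL4 and SOX21 were low in UM-SCC-47 (2.45, 1.52 and 0.841 CPM), as was SOX9 in UPCI-SCC-090 (3.1 CPM).

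The summed levels of squamous and of glandular markers were both higher with JQ1. The 10 squamous markers summed to 2420 to 2810 CPM in UM-SCC-47 with DMSO and 3160 to 4190 CPM with JQ1, and to 5660 to 8610 CPM and 13100 to 20900 CPM in UPCI-SCC-090. They did not rise as a set: 3 were called lower and 2 higher in UM-SCC-47 (all genes 25.5% and 16.1%). In UPCI-SCC-090 0 were called lower and 3 higher (all genes 20.4% and 7.67%). In UM-SCC-47 the largest rise was that of KRT17 (from 360 to 1830 CPM), while KRT5 fell from 607 to 172 CPM. In UPCI-SCC-090 it was that of KRT6A (from 4560 to 11900 CPM). The summed level of 14 markers of glandular and columnar epithelium was 10200 to 12300 CPM in UM-SCC-47 with DMSO and 39400 to 59400 CPM with JQ1, and 3220 to 5630 and 9580 to 17300 CPM in UPCI-SCC-090. The higher glandular sums lay in KRT8 and KRT18 in UM-SCC-47 (from 5530 to 27800 and from 2230 to 15500 CPM) and in KRT19 in UPCI-SCC-090 (from 2900 to 11000 CPM), where KRT8 (−0.09) and KRT18 (−0.45) were not called. KRT7 (−2.10) and AGR2 (−2.74), on the same list, fell in UM-SCC-47. MUC5AC, TFF3 and HNF4A were at 0 in 1 or more groups, and MUC1 fell in UM-SCC-47 (−3.92, adjusted p = 1.3e-04). These marker genes were named after their values were seen. The summed level of 10 fibroblast markers was 26.5 to 29.1 CPM in UM-SCC-47 with DMSO and 32.8 to 42.8 CPM with JQ1, and 21.7 to 32.6 and 3.03 to 5.86 CPM in UPCI-SCC-090. The higher sum in UM-SCC-47 lay in TWIST1 (from 13.7 to 33.1 CPM), while COL1A1 fell (from 12 to 5.25 CPM). In both UM-SCC-47 groups 8 of the 10 averaged under 1 CPM. Whether a change in the makeup of the cultures has a part in the members' levels was not tested.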

How the data were processed

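Per the labels, RNA was taken with the mirVana kit and made into TruSeq stranded total RNA Gold libraries. The authors deposited 1 table of estimated counts per gene from Salmon (version 0.8.2 in the submitters' processing notes), not normalized, with 20738 Ensembl genes and 1 column per library. The notes also name DESeq2 1.28.0. The design text gives 2 lanes per repeat, and the table holds 1 column for each. No source used here names the index.

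Counts were rounded and tested in R 4.3.3 with edgeR 4.0.16 (filterByExpr with a minimum count of 10 and total of 15, TMM factors, quasi-likelihood F test, Benjamini-Hochberg adjustment over all genes). JQ1 was compared with DMSO within each line (6 libraries, 13440 and 13150 genes), and lines and interaction in 1 fit of 12 libraries (14396 genes). The standard error is the log2 fold change over the square root of F. The scripts were tested on simulated data. Levels are CPM over the 12 libraries. Symbols, exon lengths and GC content came from GENCODE 44 on GRCh37 (20015 of 20738 IDs). Alternatives covered scaling, filter, DESeq2 1.42.0, left-out libraries, a replicate block and GC correction. The members and gene lists were chosen with earlier results of these data known. Named list genes are up to 3 called rises and 3 falls per list and line whose libraries did not overlap and whose larger group mean reached 5 CPM. Genes called in both lines, and marker genes, were named after their values were seen. Some genes that these rules name are not reported here. Intervals and floors cover counting error only.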

Additional observations from a re-analysis of the deposited data

Results flagged for a closer look

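The interaction of line and treatment was called for SOX2, at 2.33 ± 0.58 on the log2 scale (UPCI-SCC-090 minus UM-SCC-47, edgeR adjusted p = 0.034). It was also called for ZNF750, at 4.86 ± 1.12 (adjusted p = 0.033). Both genes were under the count filter in UM-SCC-47 and passed it in the fit of 12 libraries only through UPCI-SCC-090. The calls therefore do not establish that the responses differ. In UM-SCC-47 SOX2 had 35 and 3 counts and ZNF750 6 and 0 counts over the 3 libraries with DMSO and with JQ1, so that both values depend on the prior count. The call of SOX2 held under 8 of 21 alternatives and that of ZNF750 under 7 of 21, and the adjusted p ranged from 0.017 to 0.15 and from 0.023 to 0.14.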

How the results depend on the processing

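Over the 9 members and 5 comparisons, 757 results under alternatives kept their direction and side of the threshold, 38 lost a call, 28 gained one and 18 changed sign, none of them called in the main analysis. The members called higher in UM-SCC-47, 1 in the main analysis, were 0 with upper-quartile factors, with library size only and in the fit of 12 libraries, 2 after GC correction, and 0 to 1 with a library left out. Over all genes the higher calls there went from 2163 to 1840, 1456, 1348 and 2966 in the first 4 of these fits. The members called lower in UPCI-SCC-090, 3 in the main analysis, were 5 in the fit of 12 libraries. Over all genes these calls went from 2680 of 13150 to 3227 of 14396. The interaction calls were 2 in the main analysis, SOX2 and ZNF750. DESeq2 called 1, PAX9, and the fit with the libraries of steepest GC trend left out called 1, TP73. GC correction called TP73, SOX15 and FOXE1. SOX2 and ZNF750 were called in none of these fits, in which the interaction calls over all genes were 1019, 625 and 2799. With a library left out the calls were 0 to 6, the 6 without UPCI-SCC-090 JQ1 replicate 2. Over all genes the interaction calls moved from 945 to between 463 and 1775 with a library left out, 1775 being those without that library. The causes were not tested.

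Values that changed sign were those of SOX15 in UM-SCC-47 (−0.21 with library size only, −0.10 to 0.36 with a library left out), PAX9 in UPCI-SCC-090 (−0.14 with library size only and with the steepest trends left out, −0.09 to 0.37), BNC1 in UPCI-SCC-090 (−0.59 to 0.18) and PAX9 between the lines with DMSO (−0.07 with RLE and with upper-quartile factors, −0.06 with DESeq2, −0.09 over 6 libraries, −0.36 to 0.21).

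Pairing was read on the deviations of log2 CPM from the group means, over all genes. In these deviations same-numbered DMSO and JQ1 libraries correlated by −0.15, 0.20 and 0.43 in UM-SCC-47 and by 0.10, 0.79 and 0.21 in UPCI-SCC-090. Not every library correlated best with its own number, so that the numbers were not taken as pairs. With the replicate block, 0 members were called higher in UM-SCC-47 and 5 lower in UPCI-SCC-090. Over all genes the block moved the same calls from 2163 to 2164 and from 2680 to 3141. With the block and GC correction the member calls were 0 and 5, and their interaction calls 4. Over all genes the lower calls in UPCI-SCC-090 then went from 2680 to 4050 and the interaction calls from 945 to 2357.

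Over all genes, RLE scaling gave 2846 lower and 2622 higher calls in UM-SCC-47 and 1755 and 1287 in UPCI-SCC-090, against 3431 and 2163 and 2680 and 1009 with TMM, and library size only gave 4589 and 1456 and 3069 and 635. With 3 libraries a group, changes in UPCI-SCC-090, where the biological coefficient of variation was 47%, were measured less precisely than in UM-SCC-47, at 31.6%.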
